A study of Mus musculus with 12 samples.

Results

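The genes described here encode the machinery of oxidative phosphorylation in mouse lung endothelial cells. They are the protein-coding genes whose symbols name subunits of NADH dehydrogenase, succinate dehydrogenase, the cytochrome bc1 complex, cytochrome c oxidase and ATP synthase, in the nucleus or on mitochondrial DNA. A gene was kept when its level, summed over its transcripts, averaged at least 1 FPKM (fragments per kilobase of transcript, scaled to the depth of the library) over all 12 libraries. Of 106 genes with such a symbol, 98 passed, 87 nuclear and 11 mitochondrial, among 11378 genes at that level and 23422 gene identifiers in all. Members were chosen by symbol and by this mean level over all libraries. The rule itself uses no comparison between groups, but it was chosen with earlier results of these data known. Just above the limit stood Cox7a1 (1.13 FPKM), mt-Nd4l (1.96) and mt-Co3 (2.08), and just below it mt-Co2 (0.477), mt-Atp6 (0.428) and Ndufa4l2 (0.158). The nuclear members hold 36 subunits of complex I, 4 of complex II, 9 of complex III, 13 of complex IV (Ndufa4 included) and 15 of complex V. They also hold Cox7a2l, described as joining complexes III and IV into supercomplexes, a role not examined in these cells. The others are the 7 complex I assembly factors Ndufaf1 to Ndufaf7, and Atp5s and Atp5sl, named after ATP synthase without being subunits of it.

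RNA was sequenced from primary lung endothelial cells, 3 libraries to a group. The groups were MLK2-/-MLK3-/- double knockout cells after 90 min at 1% oxygen (hypoxia), the same genotype at 21% oxygen (normoxia), wild type C57BL/6J cells in hypoxia, and wild type cells in normoxia. MLK2 and MLK3 are kinases upstream of JNK, encoded by Map3k10 and Map3k11, and the study asked which pathways lie downstream of them. Since no label states that replicate libraries stem from separate cultures or animals, p-values measure the spread between these libraries, which may be technical.

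Electrons from NADH enter the respiratory chain at complex I and those from succinate at complex II. Complexes III and IV pass them on to oxygen, and complexes I, III and IV pump protons across the inner membrane. Complex V, ATP synthase, uses the proton gradient to make ATP. Most subunits are encoded in the nucleus, while the catalytic core of complexes I, III and IV and part of the proton channel of complex V are encoded on mitochondrial DNA, so that both genomes must supply parts. Separate assembly factors build each complex and are not part of the finished enzyme. Endothelial cells make much of their ATP by glycolysis, and in hypoxia the transcription factor HIF-1 shifts metabolism further from respiration.

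The low values of single-transcript genes imply 21300000 to 25900000 fragments per library. All 8 endothelial markers were present in all groups, at means of 33.8 (Tek) to 1263 FPKM (Emcn), and none of 4 epithelial markers averaged 1 FPKM. The endothelial sum overlapped between genotypes at each oxygen level, but single markers separated. In hypoxia Cldn5 was lower in the double knockout (184 to 215 FPKM) than in wild type (261 to 317). Erg was higher there (209 to 216 against 192 to 196 FPKM), as was Pecam1 (623 to 640 against 548 to 583). Map3k10 lay between 0.131 and 1.34 FPKM in the 6 double knockout libraries and between 16.6 and 19.2 in the 6 wild type libraries. Map3k11 lay between 10.9 and 12.2 FPKM in the double knockout and between 31.9 and 36.4 in wild type, so RNA of this gene was still counted in the double knockout. The summed level of 5 macrophage markers was 59.6 to 72.7 FPKM in double knockout libraries and 20.1 to 28.7 in wild type. Most of it was Lyz2 (55.4 to 68.9 FPKM in the double knockout and 16.9 to 25.7 in wild type), while Cd68 and Csf1r overlapped between genotypes at each oxygen level. Adgre1, under 1 FPKM, was higher in the double knockout at both oxygen levels, and Ptprc, also under 1 FPKM on average, separated in normoxia only. For 4 lymphatic endothelial markers the sum was 372 to 445 FPKM in the double knockout and 482 to 593 in wild type, most of it Lyve1 (235 to 279 FPKM in the double knockout and 335 to 408 in wild type), while Pdpn was higher in double knockout normoxia (60.0 to 61.5 FPKM) than in wild type normoxia (48.8 to 54.1). The sum of 4 fibroblast markers separated as well (3.08 to 3.58 FPKM in the double knockout and 1.48 to 2.12 in wild type). So did that of 4 mural markers (4.47 to 6.40 FPKM in the double knockout and 2.14 to 4.10 in wild type). Dcn and Acta2 led these sums, the 1 marker of each list that averaged at least 1 FPKM. Col1a1 went with Dcn, but Pdgfra was lower in double knockout hypoxia (0.126 to 0.177 FPKM) than in wild type hypoxia (0.237 to 0.288). The part of the marker differences in the differences between genotypes below was not tested. In bulk RNA fewer cells of a type and less RNA per cell cannot be told apart.

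The nuclear members were among the most abundant transcripts of these cells and varied little. Their median level was 149 FPKM, against 12.6 over all genes tested, and 58 of the 87 stood in the top 10% of tested genes (from 87.5 FPKM). The median coefficient of variation over the 12 libraries was 5.47% for nuclear members, 6.23% for 1026 other genes of the same level range, and 10.2% for all genes tested. Ndufv2, a flavoprotein-arm subunit of complex I, was the steadiest member at 2.04%, with all 12 libraries between 114 and 124 FPKM. Cox4i1, the regulatory subunit IV of cytochrome c oxidase, had the highest nuclear level, 1143 FPKM. Atp5b, the catalytic beta subunit of ATP synthase, followed at 1022 FPKM.

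Levels differed widely between subunits of complexes I, III, IV and V. Complex I subunits ran from 13.7 FPKM (Ndufa11) to 353 (Ndufa1), with a median of 112. The 4 subunits of succinate dehydrogenase, which form the complex in equal numbers, lay close together, from 112 (Sdha, the flavoprotein) to 122 FPKM (Sdhb, the iron-sulfur protein). Complex III ran from 57.2 (Cyc1, cytochrome c1) to 625 FPKM (Uqcr11), complex IV had a median of 288 and complex V one of 279, with Atp5d lowest at 85.6. FPKM is per length, and 13 members have transcripts under 500 bases, Ndufa1 (419) and Uqcr11 (445) among them. As described below, 250 to 280 bases appear to be taken off each length. Levels of such short transcripts rest on a small remaining length and compare less surely with those of long ones. Protein was not measured.

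Summed over the 36 nuclear subunits, complex I reached 4667 ± 103 FPKM in double knockout hypoxia, 4662 ± 273 in double knockout normoxia, 4630.3 ± 47.0 in wild type hypoxia and 4572 ± 97.0 in wild type normoxia (SD, n = 3). The 13 nuclear subunits of complex IV summed to 5890.0 ± 123, 5799.9 ± 346, 5889.6 ± 46.5 and 5733 ± 142 FPKM in the same order of groups. All 87 nuclear members took 2.86%, 2.92% and 2.93% of the summed FPKM of the double knockout hypoxia libraries, and 2.95%, 2.96% and 3.05% of those of double knockout normoxia. In wild type the share was 2.87%, 2.84% and 2.91% in hypoxia and 2.96%, 2.92% and 2.96% in normoxia. The share was thus lower in each hypoxia library than in any normoxia library of its genotype. The summed FPKM of all genes was itself 704518 to 715979 in the 6 hypoxia libraries and 646666 to 705129 in the 6 normoxia libraries, while the members' own sums overlapped between oxygen levels. Double knockout normoxia library 1 had the lowest total and was the lowest of the 12 for 26 nuclear members, and library 3 of that group was the highest for 34.

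**Figure D1:**
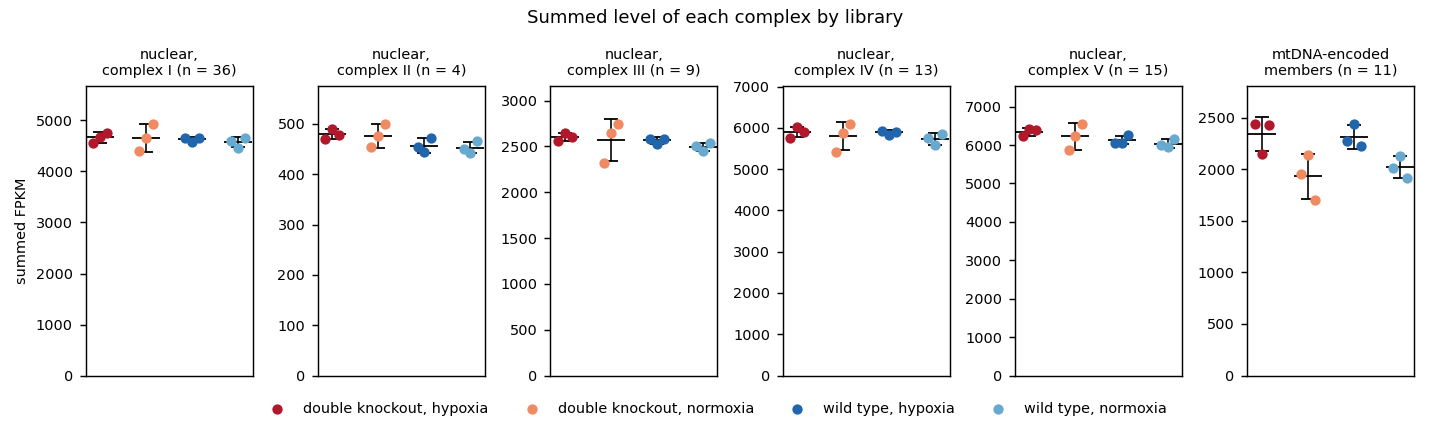
Summed FPKM per library for the nuclear subunits of each complex and for the 11 mitochondrially encoded members, on axes from 0. Points are libraries, grouped left to right as double knockout hypoxia, double knockout normoxia, wild type hypoxia and wild type normoxia, with the mean and SD of each group (n = 3). Within each nuclear complex the group means lie close together and double knockout normoxia has the widest spread (SD 273 FPKM for complex I).

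Where a subunit exists in tissue-specific forms, the general form carried the signal. Cox4i1 stood at 1143 FPKM and Cox4i2, a form described in lung and induced by low oxygen in several cell types, at 0.092. Ndufa4 stood at 425 FPKM and its paralog Ndufa4l2, a known HIF-1 target in other cells, at 0.158. Ndufa4l2 had 0.315, 0.068 and 0.199 FPKM in double knockout hypoxia and 0.233, 0.121 and 0.059 in double knockout normoxia. In wild type it had 0.248, 0.064 and 0.112 FPKM in hypoxia and 0.058, 0.179 and 0.236 in normoxia. The hypoxia and normoxia libraries overlapped in both genotypes at these levels near 0.

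The muscle forms of complex IV were at or near 0. Cox6a2 and Cox8b were listed at 0 in all 12 libraries, beside 202 FPKM for Cox6a1 and 449 for Cox8a. Cox7a1 averaged 1.13 FPKM beside 236 for Cox7a2 and 483 for Cox7a2l. The testis forms Cox6b2 (4.56 FPKM), Cox7b2 (0.0382) and Cox8c (0.0189) were low beside Cox6b1 (931) and Cox7b (276). The 3 genes that encode the same mature c subunit of the ATP synthase ring were all in use, with Atp5g2 at 279 FPKM, Atp5g3 at 265 and Atp5g1 at 217. Reads of Atp5g2 may be shared, since at least 80% of its transcript matched another transcript at 99% identity or more, as for no other nuclear member.

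Nuclear respiratory factors NRF1 and NRF2 (an ETS-family factor, GABP) are known to act at promoters of respiratory genes. RefSeq promoters (GRCm38.p6, 250 bases before to 50 after a start) were matched for 71 of the 87 nuclear members and searched on both strands. The NRF1-type motif, GCGCA and GCGC with any 1 base between them, was found for 19 members (26.8%), against 12.6% of 8477 tested genes, members included, and 5.19% of all 27025 genes. CCGGAAG, the ETS-type motif, was found for 17 members (23.9%), against 21.6% of tested genes. ACGTG, the core of the hypoxia response element, was found for 16 members (22.5%), against 30.3% of tested genes and 21.8% of all. TATAAA was found for 5 members (7.04%), against 8.10% of tested genes. Overlap between matches of different motifs was not examined, and a match is a description of the sequence only.

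The 250 bases before the start of the most abundant member with the NRF1-type letters are shown for complexes I, II, IV and V, because this motif had the largest excess over tested genes of the 4 searched. Capitals mark the matches. Ndufs5 lies on the minus strand at chr4:123718187-123718436, Sdhd on the minus strand at chr9:50603850-50604099, Cox6a1 on the minus strand at chr5:115348959-115349208 and Atp5h on the minus strand at chr11:115419920-115420169. The match begins 98 bases before the start in Ndufs5, 79 in Sdhd and 141 in Atp5h, and Cox6a1 has 2 matches.
Ndufs5: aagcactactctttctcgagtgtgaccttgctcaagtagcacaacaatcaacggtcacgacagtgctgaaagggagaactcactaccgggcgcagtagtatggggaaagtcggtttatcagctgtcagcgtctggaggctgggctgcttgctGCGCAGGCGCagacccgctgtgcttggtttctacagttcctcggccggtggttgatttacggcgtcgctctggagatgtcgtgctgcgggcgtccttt
Sdhd: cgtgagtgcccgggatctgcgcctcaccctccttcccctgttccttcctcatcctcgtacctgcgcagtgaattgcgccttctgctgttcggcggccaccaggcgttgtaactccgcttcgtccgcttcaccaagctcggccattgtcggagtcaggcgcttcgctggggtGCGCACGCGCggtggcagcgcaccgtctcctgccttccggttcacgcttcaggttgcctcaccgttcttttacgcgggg
Cox6a1: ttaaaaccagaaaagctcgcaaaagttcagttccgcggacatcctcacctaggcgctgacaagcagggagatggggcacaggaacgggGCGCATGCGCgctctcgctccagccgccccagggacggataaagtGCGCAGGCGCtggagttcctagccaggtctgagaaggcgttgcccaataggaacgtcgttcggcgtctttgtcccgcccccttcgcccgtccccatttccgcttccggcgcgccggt
Atp5h: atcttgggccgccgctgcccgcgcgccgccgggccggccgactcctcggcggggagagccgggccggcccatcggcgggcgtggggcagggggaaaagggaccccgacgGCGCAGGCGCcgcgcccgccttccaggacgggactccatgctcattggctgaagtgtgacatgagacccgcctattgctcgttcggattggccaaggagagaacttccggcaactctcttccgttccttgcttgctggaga

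Hypoxia in the double knockout changed few of these genes. The called nuclear members lay between -0.34 (Ndufaf1) and 0.27 (Atp5s) on the log2 scale, and the mitochondrial mt-Atp8 stood apart at 1.25. In limma on log2(FPKM + 1), with Benjamini-Hochberg adjustment over all genes tested and a threshold of 0.05, 5 of the 98 members were higher and 5 lower. Over all genes tested 39.3% were called in this comparison, 19.6% higher and 19.6% lower, and of 1026 other genes of the nuclear members' level range 451 were called. For 81 of the 98 members (82.7%) the whole 95% interval of the fold change lay within 1.25-fold either way. The same held for 51.2% of all genes, 87.4% of the nuclear members alone and 77.5% of those 1026 genes of similar level. The median standard error was 0.06 (log2) for members and 0.07 for all genes.

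The calls by role were 1 of 36 nuclear subunits of complex I, 0 of 4 of complex II, 0 of 9 of complex III, 1 of 13 of complex IV and 2 of 15 of complex V. Of the 7 Ndufaf assembly factors 4 were called, and of the 11 mitochondrial genes 1. Complexes II and III had no call at an adjusted p under 0.05, and none of their 13 members had an unadjusted p under 0.05.

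Ndufaf1, which chaperones the membrane arm of complex I (chromosome 2, 119655446 to 119662827, GRCm38, minus strand), had the lowest log2 fold change of the nuclear members. It had 13.2, 13.4 and 14.01 FPKM in double knockout hypoxia, against 16.2, 17.3 and 18.5 in double knockout normoxia. The groups did not overlap, and the gene fell by 0.34 on the log2 scale (SE 0.08, limma adjusted p = 0.00612). The call was lost in 1 of 24 alternative settings, the one that reads only the most abundant transcript (limma adjusted p = 0.732). Its 3 transcripts traded values between libraries, the most abundant one from 0.04 to 9.79 FPKM.

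Ndufaf5, which hydroxylates a core subunit of complex I during assembly, had 9.81, 10.7 and 11.0 FPKM in double knockout hypoxia, against 11.6, 13.0 and 12.6 in double knockout normoxia. It fell by 0.22 on the log2 scale (SE 0.07, limma adjusted p = 0.0211). Ndufaf7, a methyltransferase that modifies another core subunit, had 5.42, 4.72 and 5.34 FPKM in hypoxia, against 6.24, 6.10 and 6.25 in normoxia. It fell by 0.23 (SE 0.07, limma adjusted p = 0.0226). The libraries of both genes separated fully by oxygen level. The call for Ndufaf5 was lost without double knockout hypoxia library 1 or without double knockout normoxia library 2 or 3, with adjusted p up to 0.0873 over its alternatives. That for Ndufaf7 was lost without double knockout hypoxia library 2, without double knockout normoxia library 1 or 3 and under quantile normalisation, with adjusted p up to 0.0903.

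Ndufaf2, a late assembly factor, went the other way, at 67.2, 64.9 and 69.2 FPKM in double knockout hypoxia, against 62.7, 56.0 and 62.0 in double knockout normoxia (log2 fold change 0.15, SE 0.05, limma adjusted p = 0.0360). Ndufaf3 had a log2 fold change of -0.33 that missed the threshold (limma adjusted p = 0.0686).

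Of nuclear subunits 4 were called, with changes of at most 0.16 on the log2 scale either way. Atp5g3 (chromosome 2, 73908447 to 73911326, minus strand) had 288, 286 and 284 FPKM in double knockout hypoxia, against 268, 255 and 263 in double knockout normoxia. Its lowest hypoxia library stood above its highest normoxia library, with a log2 fold change of 0.13 (SE 0.04, limma adjusted p = 0.0166). Atp5k, the e subunit that helps ATP synthase form dimers, had 432, 428 and 457 FPKM in hypoxia, against 513, 466 and 495 in normoxia, and fell by 0.16 (SE 0.05, limma adjusted p = 0.0268). Ndufa6, an accessory subunit of complex I, had 137, 148 and 145 FPKM in hypoxia, against 150, 160 and 171 in normoxia, and fell by 0.16 (SE 0.06, limma adjusted p = 0.0437). Cox5a, an early-assembled subunit of complex IV, had 194, 194 and 184 FPKM in hypoxia, against 182, 179 and 178 in normoxia, a log2 fold change of 0.09 (SE 0.03, limma adjusted p = 0.0428).

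Atp5s rose as well, at 5.40, 5.76 and 5.65 FPKM in double knockout hypoxia, against 4.69, 4.78 and 3.96 in double knockout normoxia (log2 fold change 0.27, SE 0.10, limma adjusted p = 0.0405). The calls of these genes rested on narrow margins, since that of Atp5g3 was lost in 5 of 24 alternatives, Atp5k in 7, Atp5s and Ndufaf2 in 9 each and Ndufa6 and Cox5a in 12 each. The number of members called fell to 4 without double knockout hypoxia library 1, to 5 without hypoxia library 2 or normoxia library 2, and to 6 without normoxia library 3. Quantile normalisation gave 19 calls, 3 higher and 16 lower. The median log2 fold change of the nuclear members was 0.01 (0.01 over all genes), and -0.06 under quantile normalisation, so no overall direction is given.

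**Figure D2:**
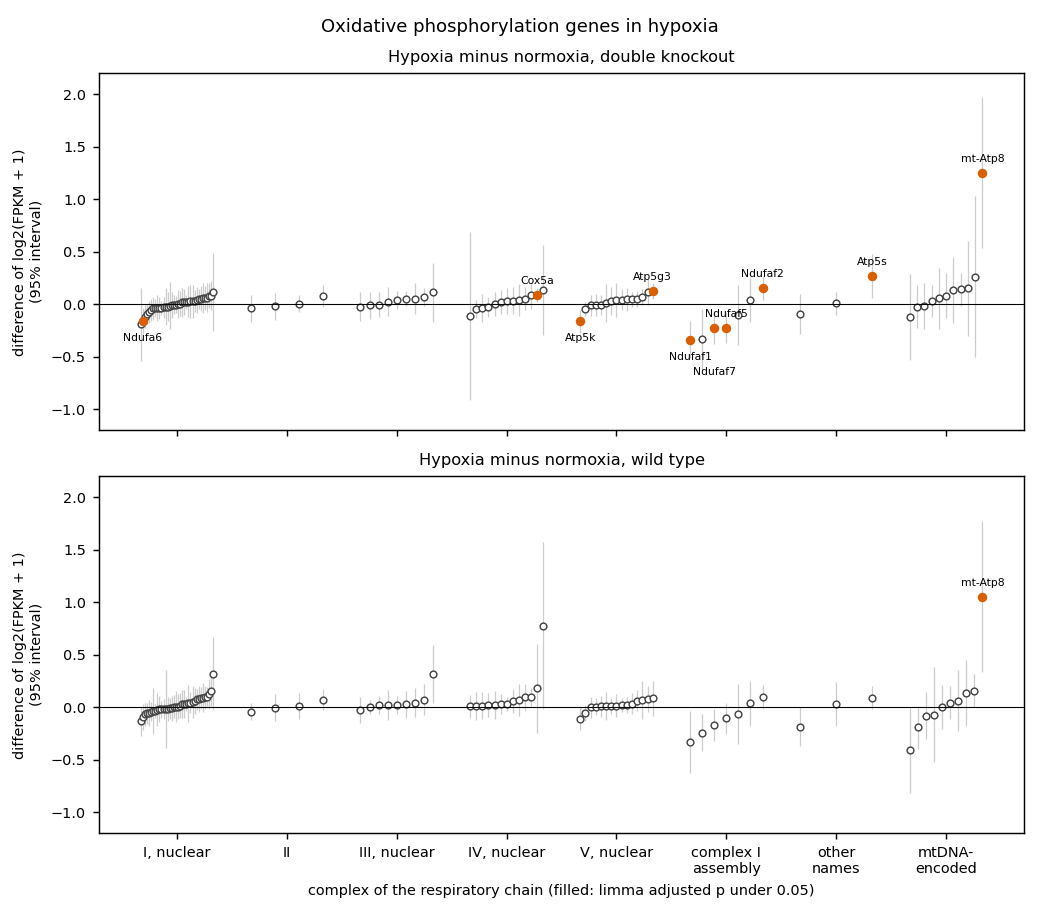
Difference of log2(FPKM + 1), hypoxia minus normoxia, for each member in the double knockout (top) and wild type (bottom), by complex, with 95% intervals. Filled points passed limma's adjusted p of 0.05. mt-Nd4l, listed at 0 in wild type normoxia, is left out of the lower panel. In the upper panel the nuclear subunits lie between -0.19 and 0.14, and in the lower one between -0.13 and 0.78, with Cox7a1 (0.78), Ndufc1 (0.32) and Uqcrq (0.32) farthest from 0 and none of them called. mt-Atp8 stands highest of the genes drawn in both panels, at 1.25 and 1.05.

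Wild type cells in hypoxia had no nuclear member past the threshold, while 20.8% of all genes tested were called, 10.5% higher and 10.4% lower. The 2 members called were mt-Atp8 and mt-Nd4l, both higher and both mitochondrial, described below. Of the 87 nuclear members 7 had an unadjusted p under 0.05. Of the 98 members, 81 (82.7%) had an interval within 1.25-fold, against 62.3% of all genes. Of the nuclear members alone 88.5% did, and of the 1026 other genes of their level range 87.0%. The median log2 fold change of nuclear members was 0.02, and -0.04 under quantile normalisation or after rescaling to the sum over genes that are not mitochondrial. Those settings called 5 members each, 4 and 3 of them lower, and leaving out wild type normoxia library 2 gave 4 calls, 2 of them lower. Without wild type hypoxia library 1 or wild type normoxia library 1 or 3, 1 call was left.

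The genes called in the double knockout had smaller estimates of the same sign in wild type, except Ndufa6. Ndufaf1 had 14.3, 12.3 and 16.1 FPKM in wild type hypoxia, against 17.3, 15.9 and 17.6 in wild type normoxia, a log2 fold change of -0.24 that missed the threshold (limma adjusted p = 0.0545). Ndufaf5 stood at -0.11 (limma adjusted p = 0.295), Ndufaf7 at -0.17 (0.107) and Atp5g3 at 0.02 (0.714). Ndufa6 had 153, 156 and 145 FPKM in hypoxia, against 147, 133 and 149.9 in normoxia (log2 fold change 0.08, limma adjusted p = 0.349). The difference between the hypoxia responses, double knockout minus wild type, was tested directly and called no member in limma. It called 0.193% of all genes, 0.0703% higher and 0.123% lower, and 6 members had an unadjusted p under 0.05. The largest nuclear estimates among those 6 were Ndufc1 (-0.51, limma adjusted p = 0.296) and Ndufa6 (-0.24, adjusted p = 0.180). A response past the threshold in the double knockout only is therefore not shown to differ from wild type.

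Between genotypes in hypoxia, 2 members were higher in the double knockout and none lower, against 16.1% of all genes called, 7.68% higher and 8.42% lower. Atp5g3 had 288, 286 and 284 FPKM in the double knockout, against 257, 250.4 and 266 in wild type. All double knockout libraries stood above all wild type ones, with a log2 fold change of 0.15 (SE 0.04, limma adjusted p = 0.0175).

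The call of Atp5g3 was lost in 5 of 24 alternatives. No member was called without double knockout hypoxia library 1 or wild type hypoxia library 2, and 1 without double knockout hypoxia library 2, double knockout normoxia library 2, or wild type normoxia library 1 or 2. Without double knockout normoxia library 1 the count was 7, 5 higher and 2 lower, and without normoxia library 3 it was 4, all higher. The macrophage, lymphatic, fibroblast and mural marker sums given above differ between the same libraries.

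In normoxia only mt-Nd4l was called between genotypes, against 8.16% of all genes tested, 3.84% higher and 4.32% lower. Of the 87 nuclear members none was called and 6 had an unadjusted p under 0.05. The interval lay within 1.25-fold for 84 of the 98 members (85.7%), against 71.4% of all genes. Of the nuclear members alone 89.7% had such an interval, and of the 1026 other genes of their level range 88.4%. Cox4i1 had 1064, 1181 and 1269 FPKM in double knockout normoxia, against 1095, 1057 and 1100.4 in wild type normoxia (log2 fold change 0.11, limma adjusted p = 0.257). Of its double knockout libraries 1 lay within the wild type range and the other two above it. Double knockout normoxia library 1 weighs on this comparison, since without it 7 members were called, all higher.

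The genes on mitochondrial DNA vary more and are harder to read. Their median coefficient of variation was 12.6%. Some have near-identical copies in the nuclear genome, and a read that fits both places can be lost or shared. In GENCODE M21, nuclear transcripts on chromosome 1 match 99.6% of the bases of mt-Co2 and of mt-Atp6, 99.9% of mt-Co3, 98.99% of mt-Nd4l and 99.1% of mt-Nd3 at 99% identity or more. For mt-Nd4 the share was 63.6%, for mt-Co1 31.3% and for mt-Atp8 21.1%. No such match was found for mt-Nd1, mt-Nd2, mt-Nd5, mt-Nd6 or mt-Cytb. The genes with nearly all bases copied stood at 0.428 to 2.08 FPKM, with the exception of mt-Nd3 at 82.1, while the 5 without a copy stood at 35.4 to 129.5. mt-Co1, the catalytic subunit of complex IV, had 1255 FPKM, although mt-Co1, mt-Co2 and mt-Co3 are parts of the same enzyme. These levels are therefore not compared with each other as abundances.

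**Figure D3:**
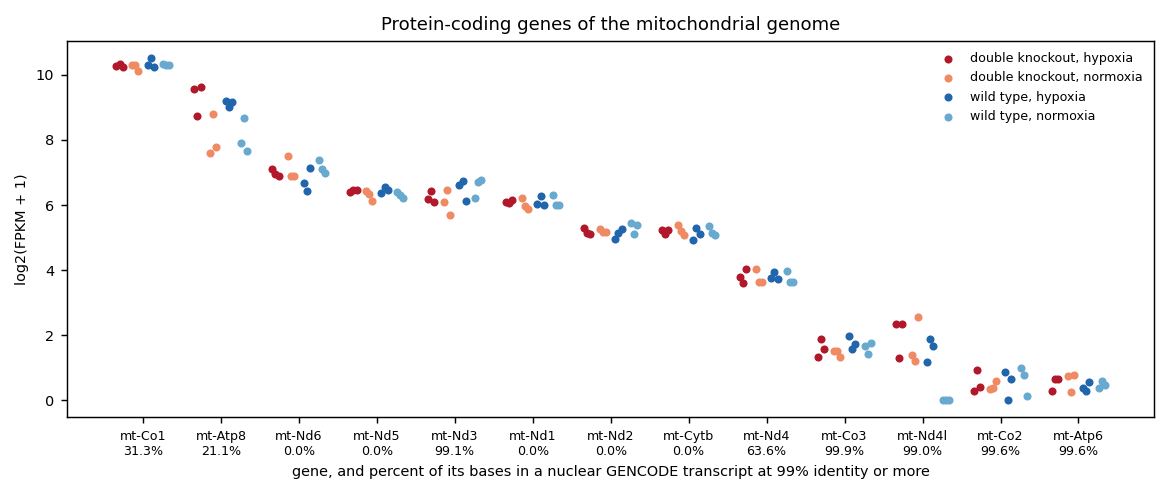
log2(FPKM + 1) of the 13 mitochondrial protein-coding genes in each library, ordered by mean level, with the share of each gene's bases found in a nuclear transcript below its name. Within each gene the groups run left to right as double knockout hypoxia, double knockout normoxia, wild type hypoxia and wild type normoxia. mt-Co2, mt-Co3 and mt-Atp6, with over 99% of bases copied, lie near 0, and mt-Atp8 has the widest spread among the abundant genes.

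mt-Co1 had 1233, 1278 and 1201 FPKM in double knockout hypoxia, against 1260.3, 1266 and 1105 in double knockout normoxia. In wild type it had 1259, 1468 and 1201 FPKM in hypoxia, against 1278, 1258 and 1256 in normoxia. The groups overlapped in both genotypes (log2 fold change 0.03 in the double knockout and 0.05 in wild type, limma adjusted p = 0.732 and 0.691). The genes without a copied base lay between -0.41 and 0.16 in both hypoxia comparisons, and none passed the threshold. mt-Nd6, the lone member on the other strand, had 138, 122 and 117 FPKM in double knockout hypoxia, against 179.8, 118 and 119 in double knockout normoxia. Its wild type libraries had 102, 86.1 and 141 FPKM in hypoxia, against 167, 138 and 126 in normoxia (log2 fold change -0.41, limma adjusted p = 0.145). Whether counting used the strand is not given in the sources used here, so reads from the opposite strand cannot be told apart.

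mt-Atp8 had the largest change with groups above 0. This subunit of the ATP synthase stator had 756, 424 and 789.8 FPKM in double knockout hypoxia, against 192, 443 and 218 in double knockout normoxia. In wild type it had 590.05, 518 and 578 FPKM in hypoxia, against 237, 409 and 202.5 in normoxia. The second library of each normoxia group was the highest of its group, and the double knockout groups overlapped while the wild type groups did not. The log2 fold change was 1.25 in the double knockout (SE 0.33, limma adjusted p = 0.0100) and 1.05 in wild type (SE 0.33, limma adjusted p = 0.0418). The first call held in all 24 alternatives, and the second was lost in 10, among them leaving out any 1 of the wild type hypoxia libraries, wild type normoxia library 1 or 3, or double knockout hypoxia library 1. Without mt-Atp8 the mitochondrial members summed to 1681 ± 44.1 FPKM in double knockout hypoxia, against 1649 ± 143 in double knockout normoxia, and to 1751 ± 151 in wild type hypoxia, against 1738 ± 34.9 in wild type normoxia.

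2 features of mt-Atp8 and mt-Nd4l limit these values, and their sequences show them. Both are short, and each shares its end with the next gene on the same transcript, drawn in capitals below (GENCODE M21, GRCm38, plus strand). mt-Atp8 spans 204 bases at chrM:7766-7969 and shares 43 with mt-Atp6, whose own value was 0.428 FPKM. mt-Nd4l spans 297 bases at chrM:9877-10173 and shares 7 with mt-Nd4.
mt-Atp8: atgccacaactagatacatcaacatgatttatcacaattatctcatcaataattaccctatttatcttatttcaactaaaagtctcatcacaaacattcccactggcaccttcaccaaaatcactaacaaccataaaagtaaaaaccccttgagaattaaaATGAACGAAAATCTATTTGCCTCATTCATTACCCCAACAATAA
mt-Nd4l: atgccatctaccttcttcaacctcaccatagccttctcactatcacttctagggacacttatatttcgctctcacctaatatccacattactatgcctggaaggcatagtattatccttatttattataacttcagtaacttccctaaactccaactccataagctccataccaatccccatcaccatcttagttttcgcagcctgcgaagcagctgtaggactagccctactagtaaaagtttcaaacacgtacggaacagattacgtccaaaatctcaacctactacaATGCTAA

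The low values of other genes imply that 250 to 280 bases were taken off each transcript's length before FPKM was computed. mt-Atp8 is shorter than that, and how its length was treated is not given in the sources used here. For mt-Nd4l the length left is 17 to 47 bases, so that 1 fragment weighs heavily. The gene had 4.07, 1.44 and 4.04 FPKM in double knockout hypoxia, against 1.598, 1.33 and 4.92 under normoxia. Wild type libraries had 1.25, 2.70 and 2.17 FPKM in hypoxia, and all 3 in normoxia listed it at 0. At the estimated depth the 9 values above 0 correspond to 0.548 to 2.64 fragments each. limma called it higher in wild type hypoxia than in wild type normoxia (adjusted p = 0.00874) and higher in double knockout than in wild type normoxia (adjusted p = 0.00979). No fold is given against a group listed at 0, and these calls rest on a few fragments.

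Assembly factors, which build the complexes, are set beside the subunits next. The lists hold 48 tested genes outside the symbol rule, which are assembly factors and also Atpif1, the inhibitor of ATP hydrolysis. Of these 48, hypoxia in the double knockout raised 3 and lowered 15, Atpif1 among the 15. Their median log2 fold change was -0.15 (0.01 over all genes). In wild type hypoxia 3 were higher and 4 lower, with a median of -0.07 (0.00 over all genes). The percentages called, 37.5% and 14.6%, stand beside 39.3% and 20.8% of all genes, and the 78 nuclear subunits (Cox7a2l included) had 4 and 0 calls. Whether assembly factors were called more often than subunits was not tested. The difference of the hypoxia responses called none of the 48 in limma, and 7 had an unadjusted p under 0.05.

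By complex, hypoxia in the double knockout lowered 6 of 11 further complex I assembly factors and raised none, beside 19.6% lower and 19.6% higher over all genes. Tmem126b, part of the assembly complex that also holds Ndufaf1, had 13.7, 15.7 and 15.8 FPKM in double knockout hypoxia, against 19.1, 20.8 and 21.2 in double knockout normoxia, and fell by 0.41 (SE 0.06, limma adjusted p = 3.11e-04). Wild type libraries had 16.1, 16.8 and 17.6 FPKM in hypoxia, against 19.5, 18.6 and 20.4 in normoxia (log2 fold change -0.20, limma adjusted p = 0.0384, lost in 6 of 24 alternatives). The groups separated in both genotypes. Tmem186 and Timmdc1, of the same assembly complex, fell by 0.33 and 0.32 in the double knockout, and Tmem126a, Dmac1 and Tmem70 by 0.21, 0.21 and 0.25. Tmem70 was counted in this list only, and not among the ATP synthase genes below.

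**Figure D4:**
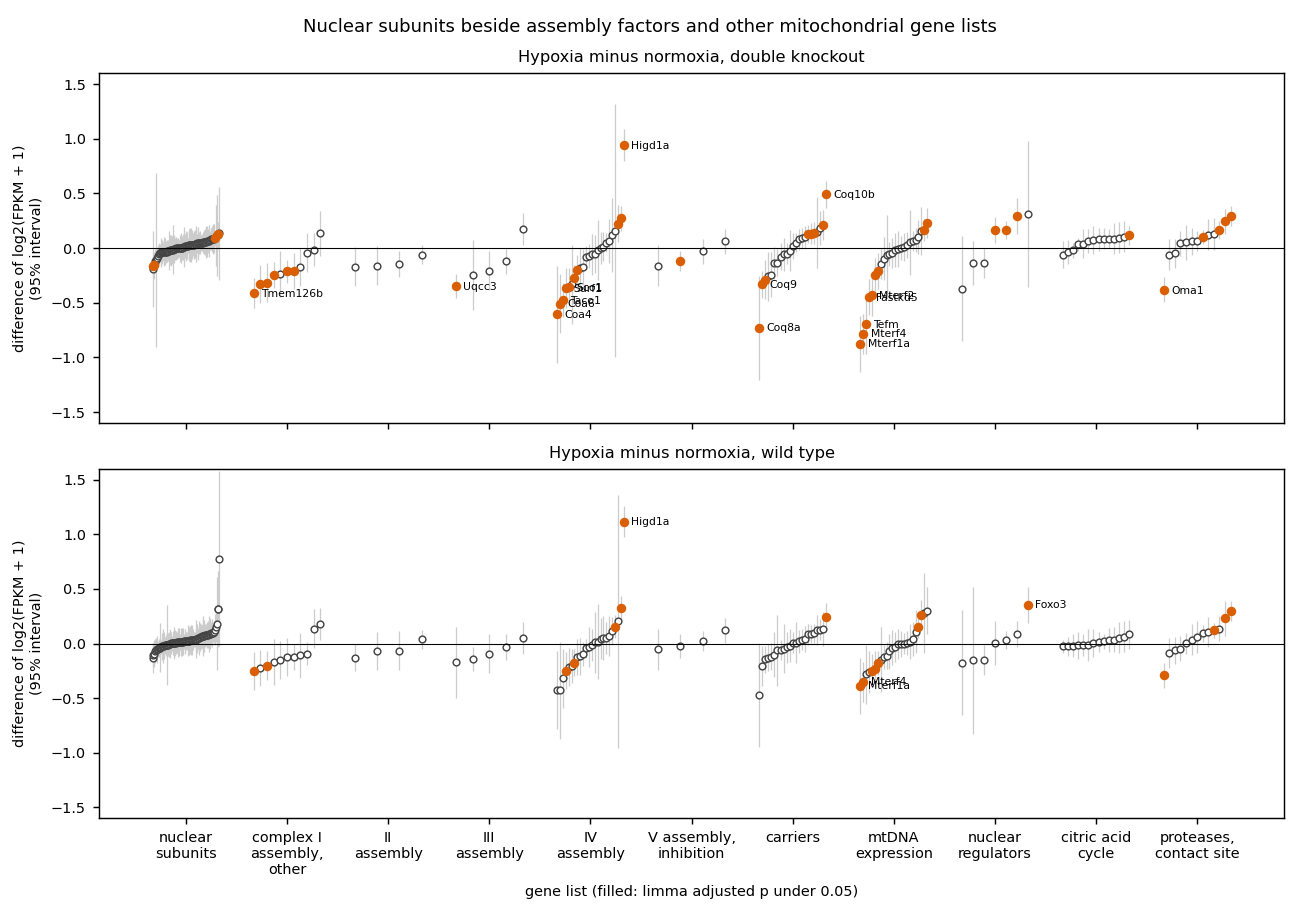
Difference of log2(FPKM + 1), hypoxia minus normoxia, for the nuclear subunits beside lists of assembly factors and other mitochondrial genes, in the double knockout (top) and wild type (bottom), with 95% intervals. Filled points passed limma's adjusted p of 0.05. In the double knockout the subunits lie between -0.19 and 0.14 and the lists reach from -0.87 (Mterf1a) to 0.94 (Higd1a). In wild type the subunits reach 0.78 (Cox7a1, not called) and the lists 1.12 (Higd1a).

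Of 24 complex IV assembly factors, 3 were higher and 7 lower in double knockout hypoxia, and 3 higher and 2 lower in wild type hypoxia. The shares called, 41.7% and 20.8%, were close to the 39.3% and 20.8% of all genes. Higd1a, which binds cytochrome c oxidase and is known to be induced by hypoxia, had 45.6, 46.5 and 42.5 FPKM in double knockout hypoxia, against 22.04, 21.1 and 25.6 in double knockout normoxia. In wild type it had 47.3, 48.9 and 48.9 FPKM in hypoxia, against 23.3, 20.6 and 21.5 in normoxia. All hypoxia libraries stood far above all normoxia libraries, with log2 fold changes of 0.94 (SE 0.07, limma adjusted p = 1.59e-06) and 1.12 (SE 0.07, limma adjusted p = 6.38e-07). Cox19, a copper-handling assembly factor, was higher in both genotypes as well (0.27 and 0.32).

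Taco1, which activates translation of mt-Co1, had 8.00, 8.11 and 8.51 FPKM in double knockout hypoxia, against 11.1, 11.4 and 13.0 in double knockout normoxia. It fell by 0.48 (SE 0.07, limma adjusted p = 2.68e-04), with separate groups, beside an mt-Co1 level whose groups overlapped. In wild type the log2 fold change of Taco1 was -0.20 (limma adjusted p = 0.0609). Coa3, which binds newly made mt-Co1 protein, fell by 0.27 in the double knockout (limma adjusted p = 0.00243) and by 0.18 in wild type (adjusted p = 0.0458). Sco1, which delivers copper, fell by 0.36 in the double knockout (limma adjusted p = 0.00390) and by 0.25 in wild type (adjusted p = 0.0450, lost in 12 of 24 alternatives). Coa4, Coa6, Surf1 and Cox17 fell in the double knockout by 0.61, 0.51, 0.37 and 0.21.

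Among other assembly lists, Uqcc3, needed for cytochrome b assembly, was the 1 called of 5 complex III factors in the double knockout and fell by 0.35 (limma adjusted p = 2.76e-04). None of 4 complex II factors was called in either genotype. Of 4 genes for ATP synthase assembly and inhibition, Atpif1, the inhibitor of ATP hydrolysis, fell by 0.12 in the double knockout (limma adjusted p = 0.0454, lost in 13 of 24 alternatives).

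Of 24 genes that replicate, transcribe or process mitochondrial DNA and RNA, 2 were higher and 7 lower in double knockout hypoxia, and 2 higher and 5 lower in wild type hypoxia, beside 39.3% and 20.8% of all genes called in either direction. Mterf4, which targets a methyltransferase to the mitochondrial ribosome, had 12.4, 12.0 and 11.3 FPKM in double knockout hypoxia, against 19.9, 21.0 and 22.9 in double knockout normoxia. In wild type it had 14.9, 13.9 and 17.7 FPKM in hypoxia, against 19.1, 19.1 and 21.8 in normoxia. It fell by 0.78 in the double knockout (SE 0.08, limma adjusted p = 3.05e-05) and by 0.35 in wild type (SE 0.08, limma adjusted p = 0.0127, lost without wild type hypoxia library 1 or 2 or wild type normoxia library 3). The difference between these responses was -0.43 (SE 0.12) with a limma adjusted p of 0.113.

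Tefm, the elongation factor of mitochondrial transcription, had 3.79, 4.83 and 5.21 FPKM in double knockout hypoxia, against 6.99, 8.06 and 9.22 in double knockout normoxia, and fell by 0.70 (SE 0.12, limma adjusted p = 9.32e-04). In wild type its log2 fold change was -0.28 (limma adjusted p = 0.133). Mterf1a, a transcription termination factor with a mean under 5 FPKM in each group, fell by 0.87 in the double knockout and 0.39 in wild type. Fastkd5, which processes mitochondrial transcripts, fell by 0.45 and 0.24. Tfam, which packages mitochondrial DNA and starts its transcription, was not called in either genotype (log2 fold change -0.10 and 0.11, limma adjusted p = 0.415 and 0.439). Twnk, the replicative helicase listed as Peo1, was higher in both (0.23 and 0.26, the second lost without wild type normoxia library 1), and Grsf1, of the RNA granules, by 0.17 and 0.15.

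Lonp1, the matrix protease that has been described to degrade a complex IV subunit form in hypoxia, had 48.7, 50.1 and 50.8 FPKM in double knockout hypoxia, against 38.7, 41.1 and 41.5 in double knockout normoxia. In wild type it had 51.8, 50.5 and 48.2 FPKM in hypoxia, against 42.4, 39.0 and 40.6 in normoxia. The log2 fold change was 0.30 in both genotypes (SE 0.04 each, limma adjusted p = 2.26e-04 and 7.44e-04), with no overlap. Oma1, the stress-activated protease of the inner membrane, fell by 0.38 in the double knockout and 0.29 in wild type (limma adjusted p = 1.59e-04 and 0.00299). Over the list of 13 proteases and contact-site genes, 4 were higher and 1 lower in the double knockout and 3 higher and 1 lower in wild type, against 39.3% and 20.8% of all genes called in either direction.

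Of 23 genes for electron carriers and adenine nucleotide exchange, 5 were higher and 3 lower in double knockout hypoxia, and 1 was higher in wild type hypoxia, beside 39.3% and 20.8% of all genes called. Coq10b, a coenzyme Q binding protein, rose in both, by 0.49 (limma adjusted p = 4.88e-05) and 0.25 (limma adjusted p = 0.0100). Coq9 and Coq8b of coenzyme Q synthesis fell in the double knockout by 0.33 and 0.29. Of 14 citric acid cycle genes 1 was called in the double knockout, Mdh2 (0.12, limma adjusted p = 0.0364, lost in 10 of 24 alternatives), and none in wild type. Of 7 tested nuclear regulators of respiratory genes, Foxo3, Gabpa and Yy1 were higher in the double knockout (0.29, 0.17 and 0.16), and Foxo3 in wild type (0.35).

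**Figure D5:**
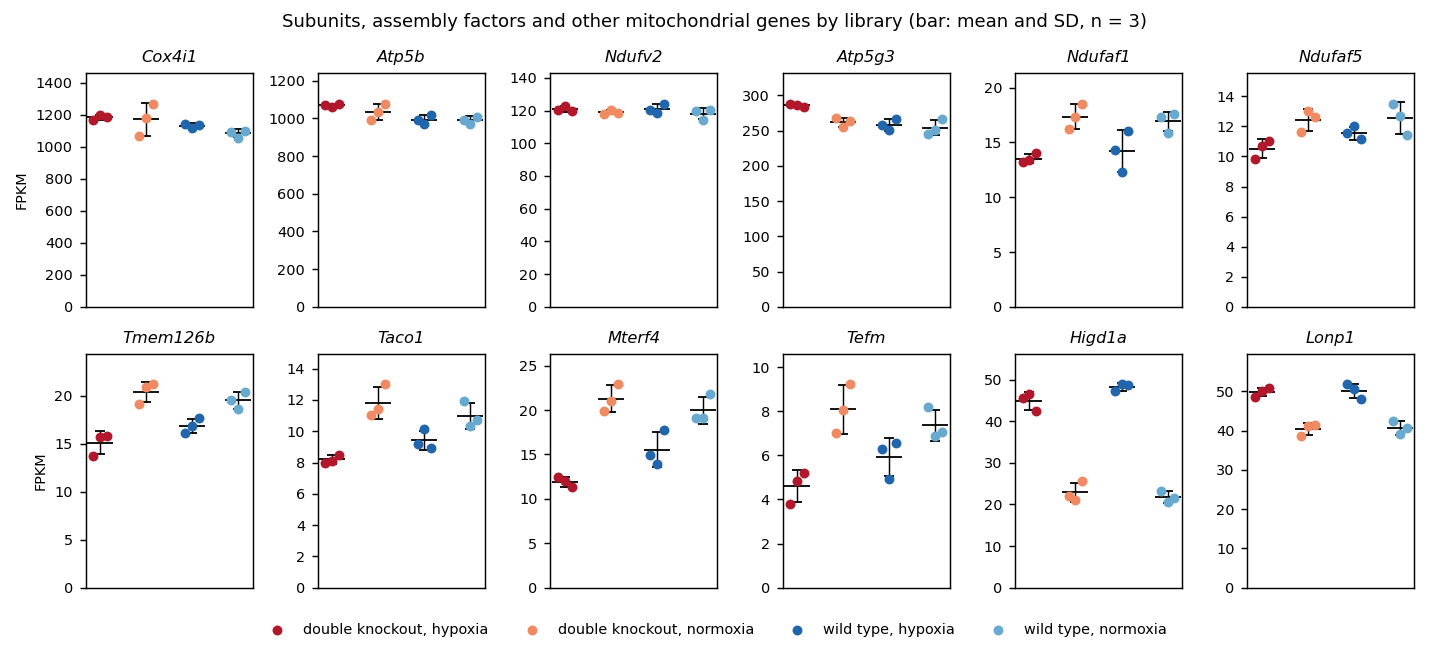
FPKM of 4 subunits (Cox4i1, Atp5b, Ndufv2, Atp5g3), 2 Ndufaf assembly factors and 6 other mitochondrial genes in each library, on axes from 0. Groups run left to right as double knockout hypoxia, double knockout normoxia, wild type hypoxia and wild type normoxia, with mean and SD (n = 3). The means of Ndufv2 lie between 118 and 121 FPKM in the 4 groups and those of Atp5g3 between 254 and 286, highest in double knockout hypoxia, while Mterf4, Tefm and Taco1 are lowest in double knockout hypoxia and Higd1a and Lonp1 are high in hypoxia in both genotypes.

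Between genotypes in hypoxia, 7.68% of all genes tested were higher in the double knockout and 8.42% lower. Of the 48 genes of the assembly lists none was higher and 4 (8.33%) were lower, with a median of -0.10. They included the inhibitor Atpif1 (-0.17, limma adjusted p = 0.0187, lost in 3 of 24 alternatives). The others were Coa3 (-0.20, limma adjusted p = 0.0346, lost in 6 of 24 alternatives), Cox19 (-0.20, limma adjusted p = 0.0236, lost in 3) and Tmem126a (-0.16, limma adjusted p = 0.0414, lost in 11 of 24 alternatives). Of the mitochondrial gene-expression list 3 of 24 were lower, among them Mterf1a (-0.54, limma adjusted p = 0.00952) and Mterf4 (-0.35, limma adjusted p = 0.0158, lost without double knockout hypoxia library 3). Mdh2 (0.19, limma adjusted p = 0.00862) and Coq10b (0.25, limma adjusted p = 0.0103) were higher. In normoxia no gene of any of these lists was called between genotypes in limma, against 8.16% of all genes tested. Of the 48 genes of the assembly lists 6 had an unadjusted p under 0.05 there. The marker sums for macrophages, lymphatic endothelium, fibroblasts and mural cells differ between genotypes at both oxygen levels, and their part in these calls was not tested.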

How the data were processed

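Per the labels' protocols, total RNA came from an RNeasy Plus extraction and the 12 libraries from the NEBNext Ultra kit. TopHat2 did the alignment, as the submitters' processing notes have it. What the authors deposited are FPKM values, 1 per library for each of 52655 transcripts, beside gene identifiers and symbols. The TopHat2 version, the genome build, the annotation and the FPKM tool were not given in the sources used. No counts were used here, so depth is an estimate from the spacing of low values (89.3% to 91.4% of them whole within 0.1 of a fragment), and no count model was fitted.

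FPKM were summed per gene identifier, and the 11378 genes averaging 1 FPKM or more were tested as log2(FPKM + 1), a scale that understates fold changes of low genes. limma 3.58.1 in R 4.3.3 was fitted to all 12 libraries with 1 coefficient per group, 8 residual degrees of freedom, a variance trend and no replicate block. p-values were adjusted by Benjamini-Hochberg in each comparison, with a threshold of 0.05. Hypoxia was compared with normoxia in each genotype, double knockout with wild type at each oxygen level, and the hypoxia responses with each other. The hypoxia comparisons and genotype comparisons share libraries. The fit was tested on simulated data. Alternatives were 12 other settings and leaving out each of the 12 libraries.

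Positions came from GENCODE M21 (GRCm38), promoters from RefSeq (GRCm38.p6), and copies from blastn 2.17.0 of member transcripts against GENCODE transcripts at 99% identity or more. Named were members past the threshold, the most abundant member of each complex, mitochondrial genes, alternative isoforms, genes beside the 1 FPKM limit and, from each pathway list, up to 4 called genes with the smallest p, with further called genes of a list added in the text. The members, lists and rules were chosen with earlier results of these data known. One of the members called between genotypes in hypoxia is not reported here.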

Additional observations from a re-analysis of the deposited data

Results flagged for a closer look

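Map3k10, a targeted gene, differed between the genotypes in its hypoxia response. It had 1.34, 1.151 and 1.02 FPKM in double knockout hypoxia, against 0.145, 0.169 and 0.131 in double knockout normoxia, and 19.1, 16.6 and 16.7 FPKM in wild type hypoxia, against 18.9, 18.3 and 19.2 in wild type normoxia. The difference of the log2 fold changes, double knockout minus wild type, was 1.02 (SE 0.10, limma adjusted p = 0.00375). Map3k10 passed the mean of 1 FPKM through its wild type libraries. Its double knockout values lie near the floor, so the difference concerns the little RNA still counted for a targeted gene. What that RNA is was not tested.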

How the results depend on the processing

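Of the calls followed through the alternatives, 3 of 15 among members and 28 of 53 among pathway-list genes held in every one that tested the gene. Those 3 were mt-Atp8 in double knockout hypoxia and both calls of mt-Nd4l, which was tested in 23 alternatives. As given above, mt-Nd4l rests on a few fragments and mt-Atp8 is shorter than the bases taken off. Every call of a nuclear member was lost in at least 1 alternative. The number of members called (10 in double knockout hypoxia, 2 in wild type hypoxia, 2 between genotypes in hypoxia, 1 in normoxia, 0 for the difference of responses) moved as follows. Without the filter on low values it was 6 in double knockout hypoxia, 1 in wild type hypoxia and 1 between genotypes in hypoxia, and with a minimum of 5 FPKM it was 4 between genotypes in hypoxia and 0 in normoxia. Quantile normalisation gave 19 in double knockout hypoxia, 5 in wild type hypoxia and 3 between genotypes in normoxia. Equal library medians gave 5 between genotypes in hypoxia and 3 in normoxia. Rescaling to the sum over genes not encoded in mitochondria gave 5 in wild type hypoxia, 5 between genotypes in hypoxia and 2 in normoxia. Between genotypes in hypoxia, fitting the compared libraries only gave 4, no variance trend 1, array weights 6, the most abundant transcript 1 and removal of a length and GC trend 6. No variance trend gave 1 in wild type hypoxia, and between genotypes in normoxia array weights gave 3 and the length and GC correction 2. A pseudocount of 0.1 gave 1 member for the difference of the responses. The cause of these shifts was not tested.

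Leaving out 1 library gave 4 to 12 members in double knockout hypoxia, 1 to 4 in wild type hypoxia, 0 to 7 between genotypes in hypoxia, 1 to 7 in normoxia and 0 throughout for the difference of responses. Both values of 7 came without double knockout normoxia library 1. Spg7, of the protease list, had a log2 fold change of 0.19 between genotypes in hypoxia, and -0.10 for its most abundant transcript.

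With a replicate block the counts were 7, 2, 2, 1 and 0 in the order given first, each within 1.5 times of the count without it. The deviations of same-numbered libraries from their group means correlated at -0.08 to 0.17, and those of different-numbered libraries at -0.13 to 0.13. Such weak correlations cannot decide whether the numbers pair the libraries, and the labels do not say.

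With 3 libraries a group, only large or steady differences can pass. FPKM hide the counts behind each value, short and copied mitochondrial genes are poorly measured, and the estimated fragments cover counting error only.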
